A study of Mus musculus with 8 samples.

Results

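The data described here are the mRNA levels of 8 genes that encode Sox transcription factors, Sox4, Sox11 and Sox12 of the SoxC subgroup, Sox5, Sox6 and Sox13 of the SoxD subgroup and Sox8 and Sox9 of the SoxE subgroup. They were taken by name, as 8 of the 43346 gene identifiers in the count files. The mice were of the strain Shh-cre;ROSA:YFP, and their notochord-derived cells (NDCs) were collected at embryonic day 12.5 (E12.5) or postnatal day 0 (P0), from 4 litters at each age with the animals of a litter pooled. All litters carried the same alleles and received no treatment, and in this line cells that express Shh and their descendants are labelled with YFP because Cre is driven by Shh, which the floor plate of the neural tube also expresses. The E12.5 samples were whole notochords freed by dissection and not sorted, and the P0 samples were cells shaken from thoracic and lumbar nuclei pulposi (NPs) and sorted for YFP, so that age and isolation method cannot be told apart.

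Sox proteins bind DNA through the HMG box, a domain that bends the double helix, and their subgroups differ in what lies outside it. Sox9 is the activator required for cartilage formation and for the notochordal sheath, Sox5 and Sox6 have no activation domain of their own and assist Sox9 at cartilage enhancers, and the SoxC proteins are activators found in many embryonic progenitors, including those of the skeleton and the nervous system. In mice, loss of Sox5 and Sox6 impairs the notochordal sheath and the formation of the NP.

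The start of the HMG box shows how close these genes are to each other in sequence. The coding bases for its first residues, from the codons of the motif RPMNAFM onwards, are printed here from the GRCm38 genome with the Gencode M21 coding sequence, 60 bases each, and capitals mark the bases that differ from Sox9.
Sox9: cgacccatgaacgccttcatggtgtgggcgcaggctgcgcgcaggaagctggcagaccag
Sox8: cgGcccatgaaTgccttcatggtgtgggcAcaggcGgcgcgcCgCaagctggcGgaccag
Sox4: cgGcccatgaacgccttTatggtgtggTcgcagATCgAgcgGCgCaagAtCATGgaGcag
Sox11: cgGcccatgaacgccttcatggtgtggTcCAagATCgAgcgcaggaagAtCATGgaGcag
Sox12: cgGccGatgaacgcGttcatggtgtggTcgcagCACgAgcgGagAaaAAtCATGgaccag
Sox5: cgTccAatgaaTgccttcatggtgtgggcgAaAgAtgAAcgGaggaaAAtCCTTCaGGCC
Sox6: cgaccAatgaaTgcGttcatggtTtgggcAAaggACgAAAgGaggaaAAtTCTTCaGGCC
Sox13: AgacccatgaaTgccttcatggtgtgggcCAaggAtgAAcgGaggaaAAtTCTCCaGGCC
Within a subgroup these 60 bases differed at 6 to 10 positions (median 8 over 7 pairs), and between subgroups at 14 to 24 (median 19 over 21 pairs). Sox8 differed from Sox9 at 7 positions and Sox6 differed from Sox9 at 23. The longest identical stretch shared by the coding sequences of any pair was 48 bases, between Sox4 and Sox11, whereas the reads were 100 bases long. None of the 100-base windows along the transcripts of the 8 genes was found in another of the 8 genes.

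On GRCm38, Sox4 (ENSMUSG00000076431.4) lies on chromosome 13 from 28948919 to 28953713, Sox11 (ENSMUSG00000063632.6) on chromosome 12 from 27334264 to 27342574 and Sox12 (ENSMUSG00000051817.8) on chromosome 2 from 152393611 to 152398063. In each of these the exonic bases of all transcripts merge into 1 unbroken interval. Sox5 (ENSMUSG00000041540.12) spans chromosome 6 from 143828425 to 144781977, Sox6 (ENSMUSG00000051910.9) chromosome 7 from 115470872 to 116038796 and Sox13 (ENSMUSG00000070643.7) chromosome 1 from 133382303 to 133424377. Sox8 (ENSMUSG00000024176.6) lies on chromosome 17 from 25565892 to 25570686 and Sox9 (ENSMUSG00000000567.5) on chromosome 11 from 112782224 to 112787760, the only one of the 8 on the forward strand. Antisense genes cover 54.6% of the exonic bases of Sox4 (Gm26735), 9.25% of those of Sox5 (Sox5os1) and 10.6% of those of Sox8 (2810468N07Rik). Whether strand was used in counting is not given in the sources used here, so reads of these pairs cannot be told apart. Gm26735 itself was assigned 0 reads in all 8 samples, which allows up to 3 counts in each. Reads over both genes that were left out as ambiguous would also give 0.

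The E12.5 libraries held 4442775 to 7180221 reads assigned to genes and the P0 libraries 6371842 to 8904050. Abundance is given in CPM, reads scaled to library size after TMM normalization. The smallest signal taken as seen was 3 counts, which equalled 0.337 to 0.675 CPM on library sizes without TMM. Of 15467 genes with enough counts to be tested, 27.9% differed between the ages at an adjusted p under 0.05, 12.0% being lower and 15.9% higher at P0. The E12.5 litters NDP10.2 and NPD9.2 stood apart, with 72.0 and 71.2 ambiguous reads per 100 reads on genes against 22.7 to 35.7 in the other 6 litters. A list of 10 leukocyte genes summed to 79.9 to 141 CPM at E12.5 and 424 to 3852 CPM at P0, 10 of the 10 being higher at P0, and the lowest P0 sum was that of NPD30. A list of 7 sclerotome genes summed to 131 to 185 CPM at E12.5 and 7.72 to 21.6 CPM at P0, with 7 of the 7 lower at P0. Lists of other blood and muscle cells moved too: 6 erythroid genes summed to 9344 to 41900 CPM before and 154 to 485 CPM after birth (5 lower), 6 skeletal muscle genes to 581 to 2420 and 41.4 to 156 CPM (4 lower of 5 tested), and 8 neutrophil genes to 3.98 to 15.7 and 759 to 6635 CPM (7 higher of 7 tested). Of the 10 notochord markers, 9 were tested, with Car3 (log2 fold change 2.97), Krt19 (1.74) and Cd24a (1.33) higher at P0, Shh (-7.14) and Foxa1 (-2.23) lower, and T, Foxa2, Krt8 and Krt18 not past the threshold. Noto had at most 3 counts in any litter. The part of these lists in the Sox values was not tested. In bulk samples fewer cells of a type and less RNA per cell cannot be told apart.

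Of the 8 Sox genes, 6 were lower at P0 than at E12.5 (edgeR quasi-likelihood test, adjusted p under 0.05 over all 15467 genes), where 12.0% of all tested genes were lower. All 8 had a negative log2 fold change, so none was higher by edgeR, DESeq2 or limma-voom, adjusted or not. The 6 were Sox4, Sox11, Sox12, Sox5, Sox13 and Sox8. Sox11 had by far the largest difference, and Sox6 and Sox9 did not pass the test. The groups did not overlap for Sox4, Sox11, Sox12, Sox5 and Sox13, and among all tested genes 14.4% had every P0 litter below every E12.5 litter. The median log2 fold change over the 8 genes was -1.86, against 0.04 over all tested genes.

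**Figure D1:**
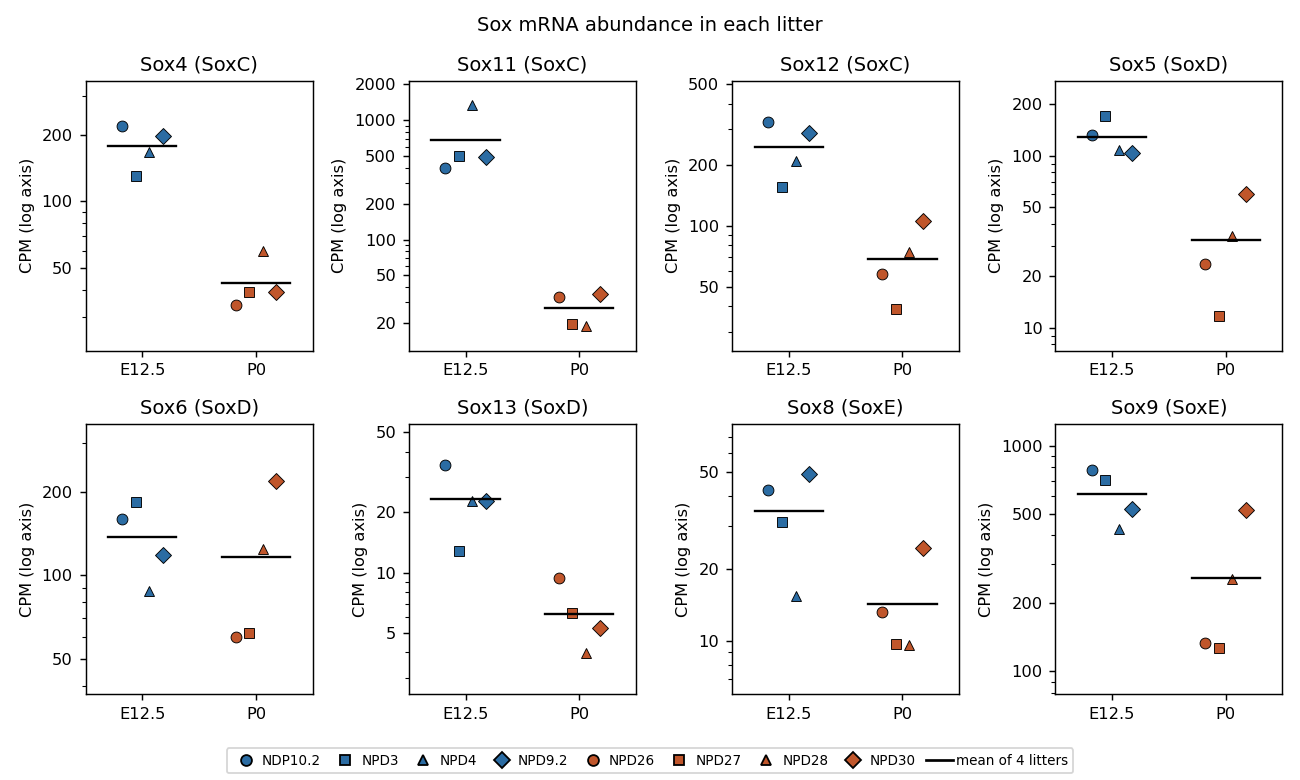
Abundance of the 8 Sox genes in each litter, in CPM on TMM library sizes on a logarithmic axis that differs between panels, with 4 litters at E12.5 (blue) and 4 at P0 (orange) and the mean of each age as a bar. Sox11 shows the widest gap, from at least 397 CPM at E12.5 to at most 34.6 CPM at P0, while the ages overlap for Sox6, Sox8 and Sox9.

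Sox11, a SoxC activator of progenitor and neuronal genes, was measured at 397, 504, 1335 and 495 CPM in the E12.5 litters NDP10.2, NPD3, NPD4 and NPD9.2. At P0 it stood at 33.1, 19.6, 18.7 and 34.6 CPM in NPD26, NPD27, NPD28 and NPD30. Every P0 litter was thus far below every E12.5 litter, and NPD4 was well above the other E12.5 litters. The mean fell from 683 ± 437 CPM to 26.5 ± 8.53 CPM (SD, n = 4 litters each), a log2 fold change of -4.69 (standard error 0.47, edgeR adjusted p = 0.000152) or 25.7-fold lower abundance at P0. Only 73 of the 15467 tested genes had a lower fold change. NPD4 also had the highest sum over 11 markers of neural tube and neurons, 2813 CPM against 177 to 231 CPM in the other E12.5 litters and 404 to 1056 CPM at P0. Without NPD4 the log2 fold change of Sox11 was -4.14.

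Sox4, the SoxC gene closest to Sox11 in the HMG box, was measured at 218, 130, 167 and 198 CPM in the E12.5 litters, in the same order as before. The P0 litters had 33.9, 39.0, 59.4 and 38.9 CPM. Both ages were tight and lay well apart. The mean changed from 178 ± 38.5 to 42.8 ± 11.3 CPM, and the log2 fold change was -2.06 (standard error 0.26, edgeR adjusted p = 0.000472), or 4.16-fold lower. As stated above, 54.6% of its exonic bases are shared with an antisense gene.

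Sox12, a SoxC protein known as a weaker activator than its relatives, stood at 323, 156, 209 and 286 CPM at E12.5. It was found at 57.7, 38.7, 73.8 and 105 CPM at P0. The ages did not overlap, and NPD30 was the highest of the P0 litters. The mean went from 243 ± 75.6 to 68.8 ± 28.2 CPM, and the log2 fold change was -1.82 (standard error 0.35, edgeR adjusted p = 0.0032), or 3.54-fold lower.

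Whether the SoxC genes differed in the size of their fall was examined as the log2 ratio of CPM of 2 genes within a litter. The log2 ratio of Sox11 to Sox4 was 0.86, 1.95, 3.0 and 1.32 at E12.5, and the P0 litters gave -0.03, -0.98, -1.65 and -0.16. The ratio was thus higher in every E12.5 litter than in any P0 litter. These ratios are not divided by gene length, so they show change between the ages and do not rank the genes. The mean ratio moved by -2.49 ± 0.60 (SE of the difference), and that of Sox11 to Sox12 by -2.69 ± 0.59, with no overlap between the ages in either. In the two-sided exact permutation test both had p = 0.0286, the smallest that 4 against 4 litters can give, and an adjusted p of 0.0514 over the 9 ratios compared, which does not pass 0.05. The ratio of Sox12 to Sox4 was 0.42 ± 0.15 at E12.5 and 0.62 ± 0.62 at P0 (exact permutation p = 0.686).

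Sox5, the SoxD partner of Sox9 in chondrogenesis, was measured at 132, 170, 108 and 103 CPM in the E12.5 litters. Its P0 values were 23.6, 11.7, 33.9 and 60.3 CPM. The ages did not overlap, but the P0 litters spread widely, with NPD30 the highest and NPD27 the lowest. The mean fell from 128 ± 30.5 to 32.4 ± 20.7 CPM, and the log2 fold change was -1.99 (standard error 0.43, edgeR adjusted p = 0.00651), or 3.96-fold lower.

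Sox6, which pairs with Sox5 on DNA and is similar to it in structure, was at 159, 184, 87.8 and 119 CPM in the E12.5 litters. It was at 59.8, 62.2, 124 and 219 CPM at P0. The ages overlapped, since NPD30 had the highest value of the 8 litters and NPD28 exceeded a pair of the E12.5 litters. The means were 137 ± 42.4 and 116 ± 74.6 CPM, and the log2 fold change was -0.24 (standard error 0.42, edgeR adjusted p = 0.715) with a 95% interval from -1.17 to 0.69. That interval allows anything from 2.25-fold lower to 1.62-fold higher abundance at P0.

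The relation of Sox5 to Sox6 was steadier than either gene alone. Their log2 ratio was -0.27, -0.11, 0.30 and -0.20 at E12.5, whereas the P0 litters gave -1.33, -2.37, -1.86 and -1.86. The ratio was thus lower in every P0 litter than in any E12.5 litter. The difference was -1.78 ± 0.25 (two-sided exact permutation p = 0.0286, adjusted p = 0.0514 over 9 ratios). NPD30, the litter with most Sox5 and Sox6 at P0, had a ratio within the range of the other P0 litters.

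Sox13, a SoxD gene better known from T lymphocytes and the nervous system, had the lowest abundance of the 8 per kilobase. It was measured at 34.2, 12.8, 22.8 and 22.7 CPM at E12.5 and at 9.38, 6.30, 3.98 and 5.27 CPM at P0. Every P0 litter lay below every E12.5 litter, and all were well above the floor. The mean fell from 23.1 ± 8.76 to 6.23 ± 2.30 CPM, and the log2 fold change was -1.89 (standard error 0.38, edgeR adjusted p = 0.00423), or 3.71-fold lower. The log2 ratio of Sox13 to Sox6 was -2.58 ± 0.84 at E12.5 and -4.01 ± 1.27 at P0 (exact permutation p = 0.143), and that of Sox5 to Sox13 was 2.51 ± 0.80 and 2.15 ± 1.26 (p = 0.629). The ages overlapped in both ratios, and neither difference passed the test.

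Sox9, the principal chondrogenic factor of the group, was at 777, 707, 429 and 523 CPM in the E12.5 litters. The P0 litters had 133, 127, 257 and 520 CPM. NPD30 lay within the E12.5 range, and the other 3 P0 litters lay below all E12.5 litters. The means were 609 ± 161 and 259 ± 184 CPM, and the log2 fold change was -1.23 (standard error 0.45, 95% interval from -2.22 to -0.24). Its adjusted p of 0.0636 in the edgeR test did not pass 0.05. Without NPD30 the log2 fold change was -1.86 with an adjusted p of 0.00211, so whether Sox9 passed depended on that litter. It also changed with the method: Sox9 passed with DESeq2 (adjusted p = 0.0252) and limma-voom (adjusted p = 0.0297).

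Sox8, the SoxE relative that can act in place of Sox9 in several tissues, stood at 42.4, 31.0, 15.4 and 49.4 CPM at E12.5. Its P0 values were 13.3, 9.74, 9.71 and 24.3 CPM. The ages overlapped, because NPD30 exceeded NPD4. The mean changed from 34.5 ± 14.8 to 14.2 ± 6.88 CPM, and the log2 fold change was -1.27 (standard error 0.41, edgeR adjusted p = 0.0404). This was the least stable of the 6 calls, for it passed in 2 and failed in 6 of the 8 fits made with 1 litter removed. With both NDP10.2 and NPD9.2 removed the log2 fold change was -0.73 (adjusted p = 0.331). The log2 ratio of Sox8 to Sox9 was -4.21 ± 0.59 at E12.5 and -4.01 ± 0.64 at P0 (exact permutation p = 0.714).

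**Figure D2:**
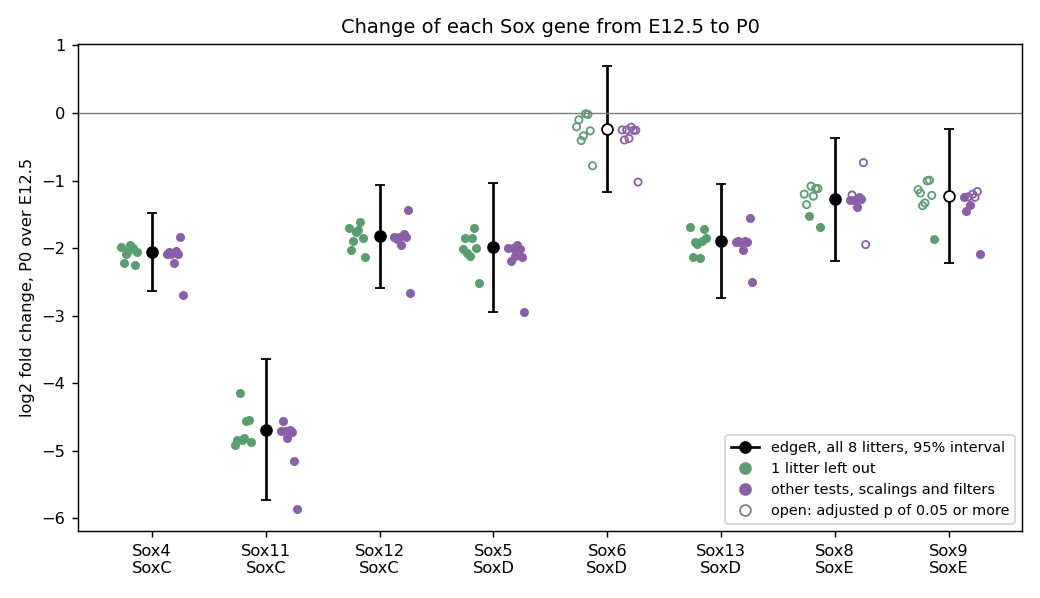
Log2 fold change of each Sox gene, P0 over E12.5, with the edgeR estimate and its 95% interval from all 8 litters (black), the fits with 1 litter removed (green) and the other tests, scalings and filters (purple). Open symbols did not pass an adjusted p of 0.05. Sox4, Sox11, Sox12, Sox5 and Sox13 are filled throughout, Sox6 is open throughout, and Sox8 and Sox9 are mixed.

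NPD30 differed from the other P0 litters in a graded way across the 8 genes. Relative to the mean of the other 3 P0 litters it had 3.02 times the Sox9, 2.67 times the Sox6, 2.61 times the Sox5 and 2.22 times the Sox8. The ratio was 1.85 for Sox12, 1.45 for Sox11, 0.88 for Sox4 and 0.80 for Sox13. The notochordal genes T, Krt8, Krt18 and Krt19 were 2.36, 2.34, 2.66 and 2.50 times as high in NPD30. The matrix genes Acan and Col2a1 were 2.69 and 2.03 times as high there. The 10 notochord markers summed to 31620 CPM in NPD30 against 8166 to 12514 CPM in the other P0 litters. Most of that sum came from other genes of the list, since T, Krt8, Krt18 and Krt19 were at 2308, 849, 182 and 643 CPM. The mean log2 CPM of the 10 was 7.48 in NPD30 and 5.88 to 6.57 in the other P0 litters. Chondrocyte markers summed to 9182 CPM against 2091 to 7236 CPM. The 10 leukocyte genes of NPD30 summed to 424 CPM against 3109 to 3852 CPM in the other P0 litters. Its 8 neutrophil genes, in contrast, summed to 966 CPM, above NPD26 (759 CPM) and NPD27 (797 CPM) and below NPD28 (6635 CPM). When counts were scaled to the summed reads of the notochordal keratins Krt8, Krt18 and Krt19, the log2 fold changes of the 8 genes ranged from -1.02 for Sox6 to -5.86 for Sox11. That scaling lowered all 8 values and moved the median of all tested genes to -0.65, so their negative sign under it carries no further information. Under it Sox9 passed (-2.08, adjusted p = 0.0304) and Sox8 did not (-1.95, adjusted p = 0.0577).

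For comparison between genes, levels were divided by exonic length. For Sox4 this length includes the 54.6% shared with an antisense gene, and for Sox5 and Sox8 smaller shared parts. If reads there were left uncounted, these levels and ranks would be understated, most of all for Sox4. In CPM per kilobase, Sox9 was the most abundant of the 8 at both ages, at 147 ± 39.0 at E12.5 and 62.7 ± 44.5 at P0. Sox11 ranked next at E12.5 with 82.1 ± 52.6, followed by Sox12 with 54.7 ± 17.0 and Sox4 with 37.2 ± 8.04. Sox9 and Sox11 overlapped across the E12.5 litters, as did Sox11 with Sox12 and Sox12 with Sox4. The other 4 genes were far below, with 11.1 ± 4.76 for Sox8, 9.26 ± 2.86 for Sox6, 8.92 ± 2.12 for Sox5 and 5.37 ± 2.03 for Sox13, and neighbours in this order overlapped. At P0 Sox12 came after Sox9, with 15.5 ± 6.32, then Sox4 with 8.92 ± 2.36 and Sox6 with 7.84 ± 5.03. Sox11 had dropped below them and below Sox8, to 3.19 ± 1.03 against 4.57 ± 2.21 for Sox8, and Sox5 (2.25 ± 1.44) and Sox13 (1.45 ± 0.53) came last. All neighbours in the P0 order overlapped except Sox9 and Sox12, whose ranges were 30.7 to 125.8 and 8.69 to 23.6 CPM per kilobase.

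The summed level of the 8 genes was 356 ± 32.4 CPM per kilobase at E12.5 and 106 ± 59.4 at P0, and its make-up differed between the ages. SoxC genes held 42.0%, 37.1%, 65.6% and 50.3% of the sum at E12.5, and 35.2%, 32.2%, 28.9% and 18.9% after birth. The SoxE genes Sox8 and Sox9 held 44.6% ± 11.2 at E12.5 and 60.2% ± 7.37 at P0. Sox10, also of SoxE, is not among the 8 and is left out of this share. It was at 45.9 ± 14.5 CPM per kilobase at E12.5 and 3.68 ± 2.35 at P0. For SoxD the share was 6.64% ± 1.32 at E12.5 and 10.95% ± 0.38 at P0, with every P0 litter between 10.6% and 11.5%. The share of Sox11 went from 23.0% ± 13.9 to 3.52% ± 1.77 and that of Sox6 from 2.62% ± 0.88 to 7.12% ± 0.88, whereas Sox12 held 15.3% ± 4.36 and 15.3% ± 2.71. These shares are descriptions, since each share depends on the other 7 genes and on the annotated lengths, including the antisense overlap of Sox4.

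**Figure D3:**
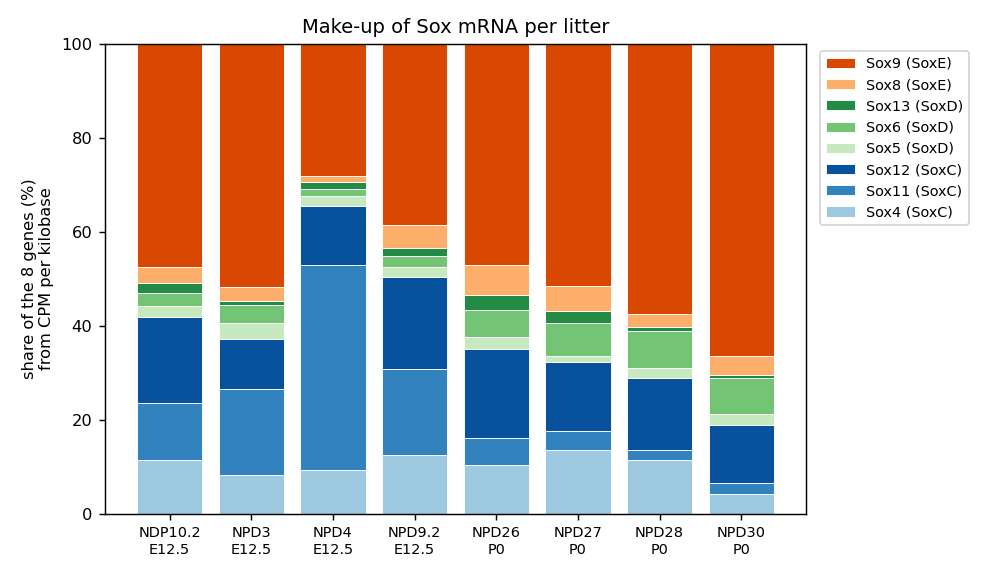
Make-up of the summed abundance of the 8 Sox genes in each litter, as the percentage of the summed CPM per kilobase held by each gene. Sox11 narrows from 12.1% to 43.5% at E12.5 to 2.08% to 5.84% in the P0 litters, and Sox9 takes 47.1% to 66.3% at P0.

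The targets of the Sox trio, as Sox9, Sox5 and Sox6 are called together, were followed in a list of 20 cartilage matrix genes. Of the 19 tested, 9 were lower at P0, 4 were higher and 6 did not pass, with a median log2 fold change of -0.75. Among all tested genes 12.0% were lower and 15.9% higher, so that the 4 higher genes were close to the latter share. The 3 genes of collagen IX, which decorates collagen II fibrils, were all lower, with log2 fold changes of -4.43 for Col9a2 (edgeR adjusted p = 8.69e-05), -2.94 for Col9a1 and -2.16 for Col9a3. Matn4, which encodes a matrilin linking matrix components, fell most, by 5.19 on the log2 scale. Col27a1 (-2.81), Col11a1 (-1.78) and Cnmd (-1.95), which encodes the antiangiogenic chondromodulin, were also lower, as were the small proteoglycan genes Epyc (-3.06) and Chad (-1.69). Higher at P0 were Matn3 (2.64), Fmod (2.36), Acan (1.99) and Snorc (1.55). Col11a1 and Snorc each lost their call in 4 of the 8 fits made with 1 litter removed, and Matn3 lost it in 3 of the 8 other settings. Acan kept its call in only 3 of those 8 fits and in 4 of the 8 other settings. With counts scaled to keratin reads, which lowers fold changes in general, 9 genes of the list were lower and, by edgeR, 0 passed as higher (2 did at an unadjusted p under 0.05). Under that scaling 9.32% of all tested genes were lower and 5.68% higher. A list of chondrocyte markers, most of them also in this list, summed to 2593 to 9826 CPM at E12.5 and 2091 to 9182 CPM at P0.

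Acan, which encodes aggrecan, the large proteoglycan of cartilage and NP, and Col2a1, which encodes collagen II, are classical Sox9 targets and were set against Sox9 within each litter. The log2 ratio of Acan to Sox9 was 0.19, -0.41, -1.39 and -0.68 at E12.5, and the P0 litters gave 2.74, 2.33, 3.26 and 2.78. The ratio was thus higher in every P0 litter, by 3.35 ± 0.38 on the log2 scale, or 10.21-fold. For Col2a1 to Sox9 the ratio was 2.79, 2.23, 1.63 and 2.34 at E12.5 and 2.94, 2.85, 3.75 and 2.81 at P0, a difference of 0.84 ± 0.33 with the ages only just apart. Both ratios had an exact permutation p of 0.0286 and an adjusted p of 0.0514 over 9 ratios. Acan alone had an edgeR adjusted p of 0.0422 with overlapping ages and failed in 5 of the 8 fits made with 1 litter removed. It passed in only 4 of the 8 other settings. Col2a1 alone had a log2 fold change of -0.49 (edgeR adjusted p = 0.558).

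**Figure D4:**
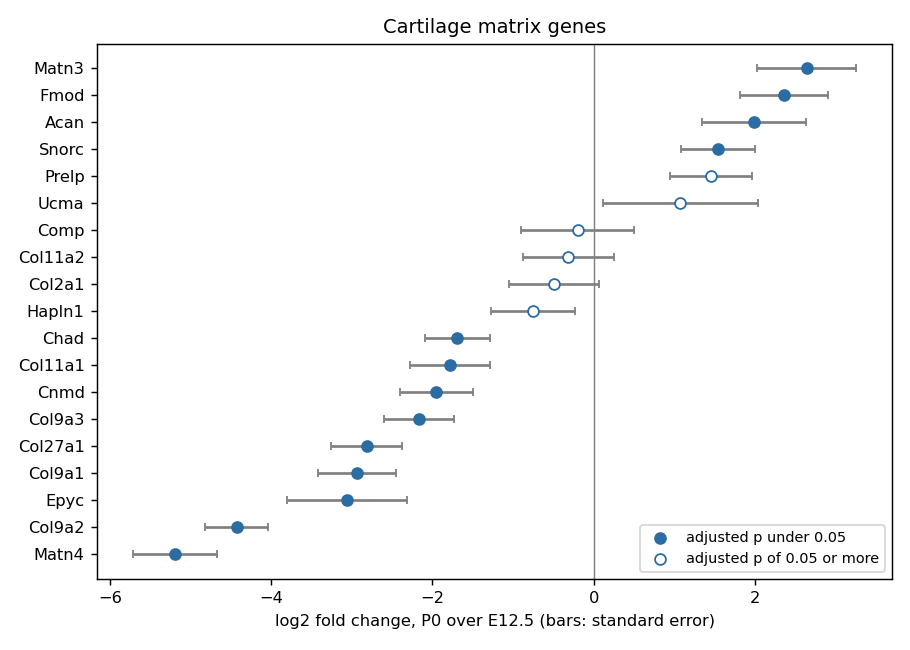
Log2 fold change, P0 over E12.5, of the 19 tested cartilage matrix genes, with the standard error as bars and filled points for an adjusted p under 0.05 in the edgeR test. The 9 lower genes reach -5.19 (Matn4) and the 4 higher genes 2.64 (Matn3).

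**Figure D5:**
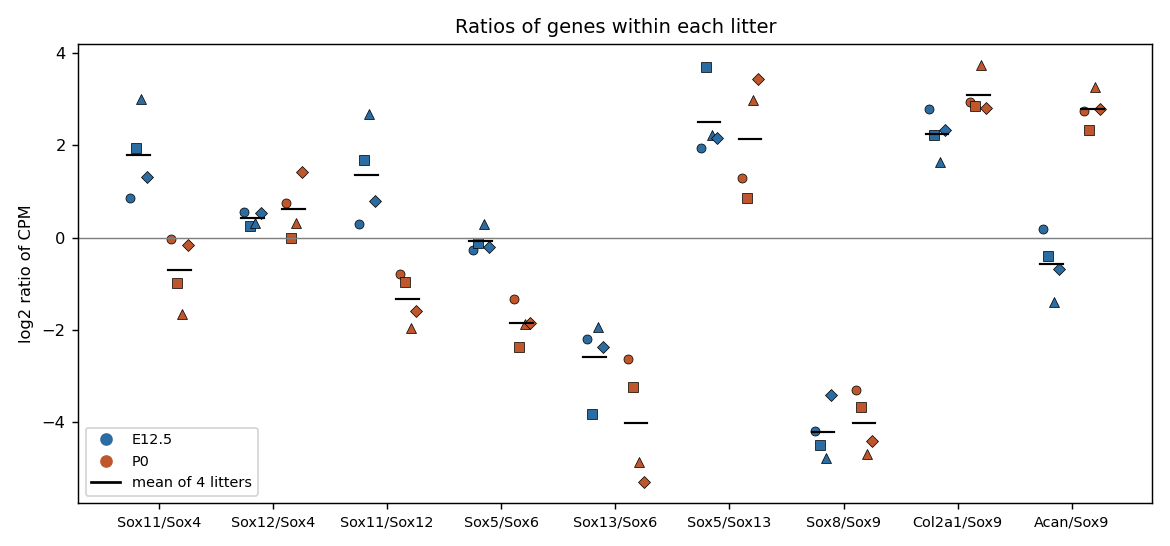
Log2 ratio of the CPM of 2 genes within each litter for the 9 ratios compared, with E12.5 in blue, P0 in orange and the mean of 4 litters as a bar. The ages do not overlap for Sox11/Sox4, Sox11/Sox12, Sox5/Sox6, Col2a1/Sox9 and Acan/Sox9, and they overlap for the other 4 ratios.

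Hypertrophic cartilage genes, which Sox9 is known to hold back in growing cartilage, were few. Of 7 listed, 6 were tested and 2 were higher at P0, where 15.9% of all tested genes were, Panx3, a pannexin channel gene (6.17), and Col10a1, which encodes collagen X (3.20), while Runx2, Runx3, Mef2c and Pth1r did not pass. The E12.5 mean of Panx3, 0.181 CPM, was below the floor, so depth limits that value. Osteoblast markers were higher at P0 in 6 of 6 tested, and their part in these values was not tested.

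Genes reported as SoxC targets or acting beside SoxC proteins numbered 8, of which 7 were tested and 3 were lower at P0, against 12.0% of all tested genes. These were Tead2, a Hippo pathway transcription factor gene (-3.75, edgeR adjusted p = 5.26e-05), Mex3a, which encodes an RNA-binding protein (-3.26), and the Wnt receptor gene Fzd3 (-2.73), and each passed whichever litter was removed. The neuronal genes Tubb3 (-0.34) and Dcx (-1.56) and the Wnt effectors Tcf7l2 (-0.42) and Ctnnb1 (-0.47) did not pass. Without the E12.5 litter NPD4, 1 of the 7 was higher at P0, Tubb3, which was at 573 CPM in NPD4 and 23.1 to 43.2 CPM in the other E12.5 litters.

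Among 12 cofactors and modifiers of Sox9, all of which were tested, 10 did not pass. The 2 that passed, 1 in each direction, were no larger a share than among all tested genes. Barx2, a homeobox gene, was higher at P0 (2.36, edgeR adjusted p = 0.0136), though not in 3 of the 8 other settings, and Zfp219, a zinc finger partner of Sox9, was lower (-1.71, adjusted p = 0.00179). The coactivator genes Ep300 and Crebbp had log2 fold changes of 0.40 and -0.49, neither past the threshold. A list of regulators placed before Sox9 in the sclerotome, the part of the somite that forms the vertebrae, had 10 of 10 tested lower at P0. They ran from Pax1 (-5.29, edgeR adjusted p = 3.42e-05) to Scx (-1.31), with a median of -2.66. All 7 sclerotome genes counted above are among these 10, so the lists are not separate observations. Scx was also listed as a marker of annulus and tendon. Among all tested genes 12.0% were lower. Without the E12.5 litters NDP10.2 and NPD9.2, 7 of the 10 passed, and 6.41% of all tested genes were lower.

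Apart from Sox10 at E12.5, the remaining Sox genes of the family list were scarce. Of 11, 5 had enough counts to be tested and 3 were lower at P0, against 12.0% of all tested genes. These were Sox10 of neural crest and Schwann cells (-3.64, edgeR adjusted p = 0.0018), Sox2 of neural progenitors (-3.0, adjusted p = 0.013) and Sox7 of endothelium and endoderm (-2.75, adjusted p = 0.00289). Sox10 was the most abundant of them, at 122, 87.8, 161 and 189 CPM at E12.5 and 13.0, 19.1, 1.75 and 11.1 CPM at P0. Sox21 and Sox18 did not pass, and Sox1, Sox3, Sox14, Sox15, Sox17 and Sox30 had too few counts. Sox10, the SoxE gene that is not among the 8, belongs to a list of 7 neural crest and Schwann markers that summed to 351 to 719 CPM at E12.5 and 45.5 to 670.0 CPM at P0, with 6 of the 7 lower at P0.

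The genes with patterns most like those of a member of each subgroup were found among 15454 tested genes outside the family, by the root mean square difference of log2 CPM over the 8 litters after each gene was centred on its own mean. For Sox11 they were Hoxc8 (0.39), Gm12688 (0.51) and Gm6433 (0.51). Their edgeR log2 fold changes were -4.19, -5.40 and -8.89, against -4.69 for Sox11. Likeness was taken on log2 CPM with a prior count of 2, which shrinks differences at low counts. The edgeR fold changes are therefore not on its scale. For Sox5 they were C230085N15Rik (0.22), Tpbg (0.23) and Slc38a4 (0.29), and for Sox9 they were Clmn (0.15), Trerf1 (0.15) and Lrig1 (0.16). Among the 8 Sox genes the most alike were Sox4 and Sox12 (0.41), followed by Sox5 and Sox9 (0.47).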

How the data were processed

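RNA-Seq was analysed for 8 samples, 4 litters at each age, whose ages were taken from their labels. The authors sequenced 100-base single-end reads from libraries made with the TotalScript kit, aligned them to GRCm38 with STAR (2.4.0j in the submitters' processing notes), and assigned them to genes of Gencode M4 by HTSeq. They deposited raw counts per gene and sample, without normalization. Of the 43346 identifiers, 42462 matched a symbol and 884 did not. Rows that name no gene, such as ambiguous reads, were left out of library sizes. Positions and exonic lengths were taken from Gencode M21 on the same build, which is later than the annotation counted on, and no protein sequence was used.

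Counts were tested in R 4.3.3 with edgeR 4.0.16 (TMM, filterByExpr with a minimum count of 10 and a minimum total of 15, robust quasi-likelihood F-test, age as the only term), on all 15467 genes that passed, with Benjamini-Hochberg adjustment. The threshold was an adjusted p of 0.05. The reported standard error is the size of the log2 fold change divided by the square root of F, and 95% intervals use the degrees of freedom of the fit without adjustment. CPM used TMM library sizes, log2 CPM a prior count of 2, and CPM per kilobase the summed exonic length. Ratios of 2 genes were compared with two-sided exact permutation tests over 70 arrangements. The depth given in the report sets the floor of 3 counts, and the floor covers counting error only. P-values measure the spread between litters. The fit was tested on simulated data.

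The 8 genes and the gene lists were chosen with earlier results of these data known. The genes named are the 8, the other Sox genes, the genes called in each list with Acan and Col2a1, and the 3 genes most like Sox11, Sox5 and Sox9. Tubb3, Dcx, Tcf7l2, Ctnnb1, Ep300, Crebbp and the uncalled hypertrophic genes were named after their values were seen. Alternatives were DESeq2 1.42.0, limma-voom (limma 3.58.1), DESeq2 size factors, upper quartile normalization, no filter, mitochondrial and hemoglobin genes left out, NDP10.2 and NPD9.2 left out, keratin scaling, a prior count of 0.5 for ratios, and each litter left out.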

Additional observations from a re-analysis of the deposited data

How the results depend on the processing

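The fall of Sox4, Sox11, Sox12, Sox5 and Sox13 passed in all 8 fits that left out 1 litter and under all 8 other settings. Without NDP10.2 and NPD9.2 the margin was thin, with edgeR adjusted p of 0.0480 for Sox12, 0.0450 for Sox5 and 0.0491 for Sox13. Sox6 passed in no fit of either kind. Across the fits that left out 1 litter, log2 fold changes ranged from -2.25 to -1.95 for Sox4, -4.91 to -4.14 for Sox11, -2.14 to -1.61 for Sox12, -2.51 to -1.70 for Sox5, -0.78 to -0.01 for Sox6, -2.14 to -1.68 for Sox13, -1.69 to -1.08 for Sox8 (passing only without NPD4 or NPD30) and -1.86 to -0.99 for Sox9 (passing only without NPD30). Sox8 also lost its call with limma-voom (-1.21), without NDP10.2 and NPD9.2 (-0.73) and with keratin scaling (-1.95). Sox9 gained a call with DESeq2 (-1.24), limma-voom (-1.45), upper quartile normalization (-1.36) and keratin scaling (-2.08). The number of the 8 genes that were lower was 6, with 5 to 7 under the alternatives. Among all tested genes the share that was lower was 12.0%, with 5.97% (no filter) to 15.2% (DESeq2) under the alternatives. For 3 of the 4 ratios whose ages overlapped, leaving out 1 litter turned the sign, over -0.067 to 0.413 for Sox12/Sox4, -0.786 to 0.0714 for Sox5/Sox13 and -0.0359 to 0.475 for Sox8/Sox9. The other 6 ratios kept their sign, and none of the 9 passed an adjusted p of 0.05 in any fit. The smallest p that 4 against 4 or 3 against 4 litters can give is 0.0286. After adjustment over 9 ratios it passes only if most of them reach it, so the missing passes say little.

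Of all tested genes 4318 were called, and 3612 to 4529 when 1 litter was left out. Without NDP10.2 and NPD9.2 it was 2580, with fewer samples in the fit, and with keratin scaling 2321, of which 1442 were lower and 879 higher, against 1853 lower and 2465 higher with TMM. Upper quartile normalization moved the median of all genes to -0.11 and gave 2322 lower and 2105 higher. No paired analysis was possible because the ages share no litter numbers. At 34 to 190 reads per litter for Sox13 and 68 to 202 for Sox8, counting error is part of their spread.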
